A study of Mus musculus with 4 samples.

Results

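The genes described here are Trp53, which encodes the transcription factor p53, its negative regulators Mdm2 and Mdm4, and 7 p53 targets with roles in cell cycle arrest and stress (Cdkn1a, Ccng1, Btg2, Gadd45a, Sesn1, Sesn2 and Phlda3). They were chosen by symbol from what is known of the pathway, with earlier results of these data known. All 10 were found among the 18298 genes listed in the files and among the 14123 genes that entered the test. They were measured in primary rib chondrocytes, the cartilage-forming cells, taken from C57BL/6 mouse embryos at E18.5 and sequenced after culture at passage 1. The 2 mutant samples were Dermo1-Cre;Senp6f/f and the 2 control samples were Senp6f/f, so both groups carried floxed alleles of Senp6, which encodes a protease that removes SUMO chains from proteins, and the mutant samples alone carried Cre. Dermo1-Cre is expressed from the Twist2 locus in mesenchymal progenitors of cartilage and bone, so cells that never expressed it would keep Senp6. Which cells of a rib dissection these would be was not measured. The sexes were not separated.

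The p53 protein is held at a low level by MDM2, a ubiquitin ligase that marks it for degradation, and by MDM4, which binds it and blocks its activity. When p53 is stabilized it binds DNA at a pair of short repeats and switches on genes such as Cdkn1a, whose product p21 inhibits cyclin-dependent kinases, and Mdm2 itself, which closes a negative feedback loop. Much of the control of p53 acts on the protein, through its modification and turnover, so the Trp53 transcript and the transcripts of its targets are separate readouts.

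The reads counted on genes numbered from 21.02 to 30.99 M a sample, and each of the 10 genes had between 213 and 13529 reads in each sample. Senp6 itself was read at 10.8 and 18.0 RPKM (reads scaled by gene length and by all reads counted in the sample) in the control samples and at 12.02 and 8.07 RPKM in the mutant samples, so the groups overlapped. Those counts cover the whole gene, exons outside the deleted stretch included. Mutant replicate 2 had 11354 reads of Xist and 7 of 4 Y-linked genes, where the other samples had at most 5 and at least 2088, so the mutant group mixed the sexes and leaving out mutant replicate 2 compares samples of 1 sex. The 14 chondrocyte markers summed to 1063 and 1040 RPKM in the control samples and to 520 and 656 RPKM in the mutant samples, and 14 of 14 were lower in both mutant samples than in both controls. The 10 skeletal muscle markers summed to 98.5 and 33.4 RPKM in the controls and to 160 and 181 RPKM in the mutants, with 6 of 10 higher in both mutant samples. Markers of fibroblasts and perichondrium summed to 12840 and 8884 RPKM against 8957 and 6580 RPKM, with 5 of 8 lower and 1 higher in both mutant samples. Osteoblast markers summed to 172 and 69.9 RPKM against 19.2 and 40.6 RPKM, with 4 of 6 lower in both mutant samples, and macrophage and leukocyte markers to 22.1 and 18.9 RPKM against 8.79 and 11.9 RPKM, with 6 of 8 lower. Endothelial markers summed to between 4.69 and 6.51 RPKM in the 4 samples, with 1 of 6 higher and 1 lower in both mutant samples. Erythroid markers stayed at or under 0.380 RPKM, with 3 of 6 not listed in any sample and the other 3 under 10 counts in every sample. For comparison with the marker counts, 28.3% of all tested genes were higher and 19.2% lower in both mutant samples. The part of this mixture of cells in the values that follow was not tested. In bulk RNA, fewer cells of a type and less RNA per cell cannot be told apart.

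The 250 bases before each annotated start of a gene were searched for the p53 consensus decamer. The aim was to show which of the 10 genes carry a p53-type sequence next to a start. A gene with several windows was counted if any of them held the sequence. All 10 genes matched the RefSeq promoter table of GRCm38.p6, with 13 windows. The decamer was found in 6 of the 10 genes (Cdkn1a, Ccng1, Mdm2, Trp53, Gadd45a and Sesn1), against 8.2% of the 27025 genes in the table. A full site, which is 2 decamers joined without a spacer over 20 bases with at most 1 mismatch, was found in Cdkn1a and Ccng1, against 0.0925% of all genes in the table. The consensus reads the same on both strands, and a decamer inside a full site was counted in both searches. The windows of 5 genes are printed from 5′ to 3′ on the strand of the gene. Those of Cdkn1a, Ccng1 and Mdm2 hold the sites of genes that were higher in both mutant samples. The others are Trp53 itself and Sesn1, which differed in the other direction. Btg2, with a larger log2 fold change (0.95) than Ccng1 (0.88) and Mdm2 (0.85), held no decamer. Capitals mark the decamer, or all 20 bases of the full site.
Cdkn1a chr17:29090729-29090978 plus strand: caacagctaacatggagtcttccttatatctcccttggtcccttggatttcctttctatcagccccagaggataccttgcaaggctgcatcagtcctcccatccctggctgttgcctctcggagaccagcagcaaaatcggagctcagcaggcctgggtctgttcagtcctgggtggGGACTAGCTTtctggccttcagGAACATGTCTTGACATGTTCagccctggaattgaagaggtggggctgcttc
Ccng1 chr11:40755287-40755536 minus strand: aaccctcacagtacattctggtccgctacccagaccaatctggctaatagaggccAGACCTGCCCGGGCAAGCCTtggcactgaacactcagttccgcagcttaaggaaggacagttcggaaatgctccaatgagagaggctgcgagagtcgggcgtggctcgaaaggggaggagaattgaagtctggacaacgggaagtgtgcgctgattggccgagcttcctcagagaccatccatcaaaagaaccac
Mdm2 chr10:117710759-117711008 minus strand: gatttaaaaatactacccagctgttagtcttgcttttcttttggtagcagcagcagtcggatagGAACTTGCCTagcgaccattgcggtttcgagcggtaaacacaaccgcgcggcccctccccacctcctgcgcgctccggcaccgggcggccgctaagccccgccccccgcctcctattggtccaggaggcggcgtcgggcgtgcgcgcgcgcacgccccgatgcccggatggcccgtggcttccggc
Trp53 chr11:69580109-69580358 plus strand: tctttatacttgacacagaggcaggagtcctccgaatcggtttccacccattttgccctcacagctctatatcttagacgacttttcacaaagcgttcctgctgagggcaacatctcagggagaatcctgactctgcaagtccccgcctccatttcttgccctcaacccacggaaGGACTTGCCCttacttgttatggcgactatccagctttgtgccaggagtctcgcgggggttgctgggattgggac
Sesn1 chr10:41887189-41887438 plus strand: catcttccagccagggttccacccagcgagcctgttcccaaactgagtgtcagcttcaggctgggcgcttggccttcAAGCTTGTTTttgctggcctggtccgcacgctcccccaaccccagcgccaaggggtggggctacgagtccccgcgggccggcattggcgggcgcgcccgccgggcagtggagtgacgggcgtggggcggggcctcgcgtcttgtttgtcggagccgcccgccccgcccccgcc
In the Cdkn1a window a single decamer lay 73 to 64 bases before the start and the full site, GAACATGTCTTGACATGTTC, lay 51 to 32 bases before it. The full site of Ccng1, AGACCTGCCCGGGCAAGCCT, lay 195 to 176 bases before the start. The decamers of Mdm2, Trp53, Sesn1 and Gadd45a began 186, 75, 173 and 40 bases before the start. Cdkn1a and Sesn1 each have another annotated start, with windows at chr17:29093519-29093768 and chr10:41810324-41810573. Those windows held 0 decamers and 0 full sites, so for these genes the distances refer to the printed windows only. No decamer was found in any window of Btg2, Phlda3, Sesn2 or Mdm4. That says only that these letters are not in the 250 bases searched. Sequence matches are descriptions of the reference genome, and no binding of p53 was measured. Of the 23 other genes with a full site, 5 passed the filter on low counts. Rps27l, a known p53 target, was one of them, and it was read at 50.1 and 60.0 RPKM in the control samples and at 56.0 and 84.2 RPKM in the mutant samples. The median log2 fold change of these 5 genes was 0.079.

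Mdm2 and most of the targets had mutant levels outside the control range, while the Trp53 levels of the groups overlapped. The levels of Mdm2, Cdkn1a, Ccng1, Btg2, Sesn2 and Phlda3 were higher in both mutant samples than in both controls, Sesn1 was lower in both, and Trp53, Mdm4 and Gadd45a overlapped. Among all tested genes, 28.3% were higher and 19.2% lower in both mutant samples, so 6 of 10 was above the background of higher genes. None of the 10 genes passed an adjusted p of 0.05 when the quasi-likelihood p-values of edgeR were adjusted by Benjamini-Hochberg over all 14123 genes, where the percent called was 0 in each direction and the smallest adjusted p of any gene was 0.0510. At an unadjusted p under 0.05, 5 of the 10 genes were higher in the mutant samples and 1 was lower, against 9.29% and 6.28% of all tested genes. With the Wald test of DESeq2, 5 of the 10 genes passed an adjusted p of 0.05 as higher in the mutant samples and 0 as lower, against 2.96% and 1.84% of the 14750 genes with an adjusted p. The median log2 fold change of the 10 genes was 0.37, against 0.0097 for all tested genes. The labels do not say whether the replicates were separate litters or cultures, so the p-values measure only the spread between these samples, and an exact permutation test of 2 against 2 samples cannot give a two-sided p below 0.333.

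**Figure D1:**
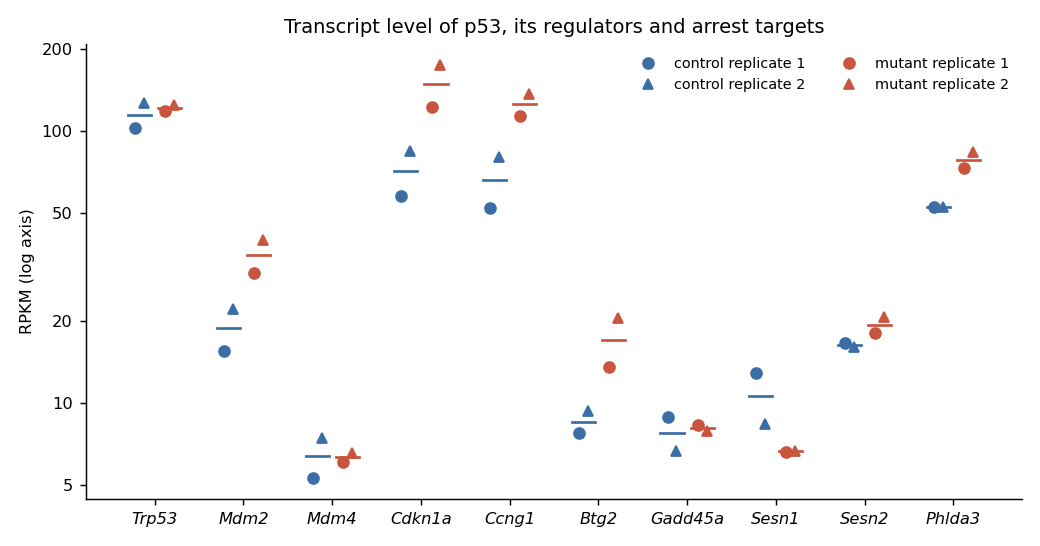
RPKM of the 10 genes in each sample, on a log axis, with control samples in blue, mutant samples in red, replicate 1 as a circle, replicate 2 as a triangle and the group mean as a line (n = 2 per group). Both mutant points lie above both control points for Mdm2, Cdkn1a, Ccng1, Btg2, Sesn2 and Phlda3, and below them for Sesn1, while the Trp53 points lie between 102 and 127 RPKM in all 4 samples.

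Trp53 was read at 102 and 127 RPKM in the control samples and at 119 and 124 RPKM in the mutant samples. Both mutant values lay between the control values, with means of 115 ± 17.3 and 122 ± 3.75 RPKM (SD, n = 2). The fitted fold was 1.03 with a 95% interval from 0.822 to 1.30 (edgeR adjusted p = 0.911), so a difference in the Trp53 transcript outside that interval was not seen at this precision. Without control replicate 1 the log2 fold change turned to -0.08, from 0.05 with all samples.

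Mdm2, the ligase that degrades p53 and is itself a p53 target, was read at 15.5 and 22.1 RPKM in the control samples and at 30.1 and 39.6 RPKM in the mutant samples. The lowest mutant value was above the highest control value. The log2 fold change was 0.85 with an SE of 0.20, a fold of 1.80 (95% interval 1.29 to 2.51), with an adjusted p of 0.125 in edgeR and 0.0058 in DESeq2. The edgeR call depended on the samples. The adjusted p was 0.0021 without control replicate 2 and 0.0183 without mutant replicate 1, and 0.054 and 0.398 without control replicate 1 and mutant replicate 2. In these reduced fits the lone sample of a group is assumed to vary like the samples of the other.

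Mdm4, the relative of Mdm2 that lacks strong ligase activity of its own, was read at 5.29 and 7.47 RPKM in the control samples and at 6.09 and 6.56 RPKM in the mutant samples. As with Trp53, the mutant values lay within the control values. The log2 fold change was -0.05 with a 95% interval from -0.49 to 0.39 (edgeR adjusted p = 0.923), and it was 0.16 without control replicate 2. Within a library the Mdm2 level was 2.94 and 2.97 times the Mdm4 level in the control samples and 4.95 and 6.04 times in the mutant samples. That ratio does not depend on the scaling between libraries, and it separated the groups where the Trp53 to Mdm4 ratio did not. The latter was 19.4 and 16.996 in the control samples and 19.5 and 18.9 in the mutant samples.

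Cdkn1a, which encodes the kinase inhibitor p21 that halts the cycle at G1, had the largest fold change of the 10 genes with all samples, though not without control replicate 1, where Btg2 was ahead at a log2 fold change of 0.84 against 0.79, or without mutant replicate 2, where Ccng1 and Cdkn1a were both at 0.76. It was read at 57.7 and 84.6 RPKM in the control samples and at 122 and 176 RPKM in the mutant samples, without overlap. The means were 71.2 ± 19.1 and 149 ± 37.6 RPKM (SD, n = 2). The log2 fold change was 1.02 with an SE of 0.23, a fold of 2.03 (95% interval 1.40 to 2.96), with an adjusted p of 0.115 in edgeR and 0.000616 in DESeq2. Among all tested genes this fold change lay at the 94.5th percentile. With edgeR the adjusted p was 0.0102 without control replicate 2 and 0.0017 without mutant replicate 1, and 0.110 and 0.189 without control replicate 1 and mutant replicate 2. With the replicate number added to edgeR as a block, the adjusted p was 0.0460 for Cdkn1a, the only one of the 10 genes that passed there, against 0.595% of all tested genes called higher. An annotated transcript on the opposite strand, AC167363.2 in GENCODE M21, overlaps Cdkn1a, and the library protocol is not stated to keep strand, so reads of that transcript cannot be told apart from those of Cdkn1a.

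Set against the level of Trp53 in the same library, Cdkn1a was read at 0.563 and 0.667 of the Trp53 level in the control samples and at 1.03 and 1.41 of it in the mutant samples. For Mdm2 the ratio was 0.152 and 0.175 against 0.253 and 0.319. For Ccng1 it was 0.511 and 0.633 against 0.958 and 1.10. For these 3 targets both mutant ratios were above both control ratios. Their RPKM already separated the groups while Trp53 overlapped, so the ratios are not a further result. Ratios of the other targets to Trp53 were not taken.

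Ccng1 encodes cyclin G1, which recruits a phosphatase to MDM2, and with 3853 to 13529 counts it had the most reads of the 10 genes in 3 of the 4 samples. Its level was 52.4 and 80.3 RPKM in the control samples and 114 and 137 RPKM in the mutant samples. The groups did not overlap, and the log2 fold change was 0.88 with an SE of 0.21 (edgeR adjusted p = 0.122, DESeq2 adjusted p = 0.0023). Ccng1 passed in edgeR without control replicate 1 (adjusted p = 0.0246), without control replicate 2 (adjusted p = 0.000256) and without mutant replicate 1 (adjusted p = 0.0212), but not without mutant replicate 2 (adjusted p = 0.197).

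Btg2, an antiproliferative gene that acts through mRNA deadenylation, was read at 7.78 and 9.32 RPKM in the control samples and at 13.5 and 20.5 RPKM in the mutant samples. Mutant replicate 2 stood highest, and the log2 fold change was 0.95 with an SE of 0.21 (edgeR adjusted p = 0.116, DESeq2 adjusted p = 0.0038). It passed in edgeR with no filter on low counts (adjusted p = 0.0473) and without mutant replicate 1 (adjusted p = 0.0049), and its adjusted p was 0.468 without mutant replicate 2.

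Phlda3, which encodes a small protein that competes with AKT for membrane lipids, had the closest control values among the genes with higher mutant levels. They were 52.4 and 52.6 RPKM, against 73.2 and 83.6 RPKM in the mutant samples. The means of 52.5 ± 0.141 and 78.4 ± 7.31 RPKM (SD, n = 2) differed by a log2 fold change of 0.53 with an SE of 0.13 (edgeR adjusted p = 0.128, DESeq2 adjusted p = 0.0478). In edgeR it passed without control replicate 1 (adjusted p = 0.0312) and without control replicate 2 (adjusted p = 0.0262), and its adjusted p was 0.283 and 0.796 without mutant replicates 1 and 2.

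The sestrins, stress proteins that restrain mTORC1, went in opposite directions. Sesn1 was read at 12.9 and 8.38 RPKM in the control samples and at 6.62 and 6.65 RPKM in the mutant samples, so it was lower in both mutant samples. Its log2 fold change was -0.73 with an SE of 0.23 (edgeR adjusted p = 0.208, DESeq2 adjusted p = 0.0722). The 2 control samples differed from each other by 1.54 times, and the log2 fold change was -0.36 without control replicate 1 (edgeR adjusted p = 0.230) and -1.06 without control replicate 2 (edgeR adjusted p = 0.000234). Sesn2, which is also switched on by ATF4 in the response to amino acid lack and to stress of the endoplasmic reticulum, was read at 16.6 and 16.1 RPKM in the control samples and at 18.0 and 20.8 RPKM in the mutant samples. The groups of Sesn2 did not overlap, but the log2 fold change of 0.20 had a 95% interval from -0.12 to 0.53 (edgeR adjusted p = 0.545). The Sesn1 level was 0.778 and 0.521 of the Sesn2 level in the control samples and 0.367 and 0.320 of it in the mutant samples.

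Gadd45a, a growth arrest gene that answers p53 as well as other stress factors, was read at 8.86 and 6.66 RPKM in the control samples and at 8.33 and 7.90 RPKM in the mutant samples. The groups overlapped, and the log2 fold change was 0.02 with a 95% interval from -0.53 to 0.57 (edgeR adjusted p = 0.976). It was -0.22 without control replicate 2. It had the lowest counts of the 10 genes, 213 to 316 a sample, and it overlaps E230016M11Rik on the opposite strand, which was given 6 to 16 counts.

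**Figure D2:**
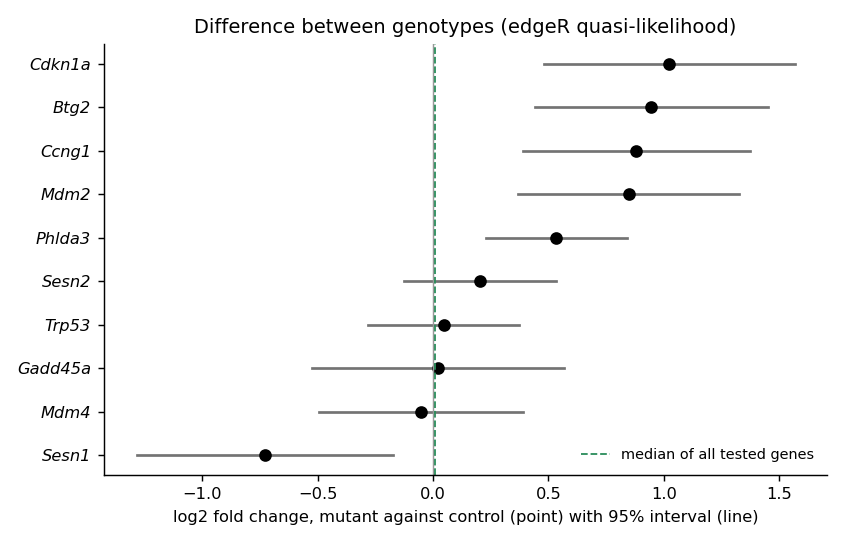
Log2 fold change, mutant against control, of each of the 10 genes from the edgeR fit of all 14123 tested genes (points) with 95% intervals (lines), ordered by size, with the median of all tested genes as a dashed line. The intervals of Cdkn1a, Btg2, Ccng1, Mdm2 and Phlda3 lie above 0, that of Sesn1 lies below 0 and the other 4 include 0. These intervals are not adjusted for the number of genes tested.

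**Figure D3:**
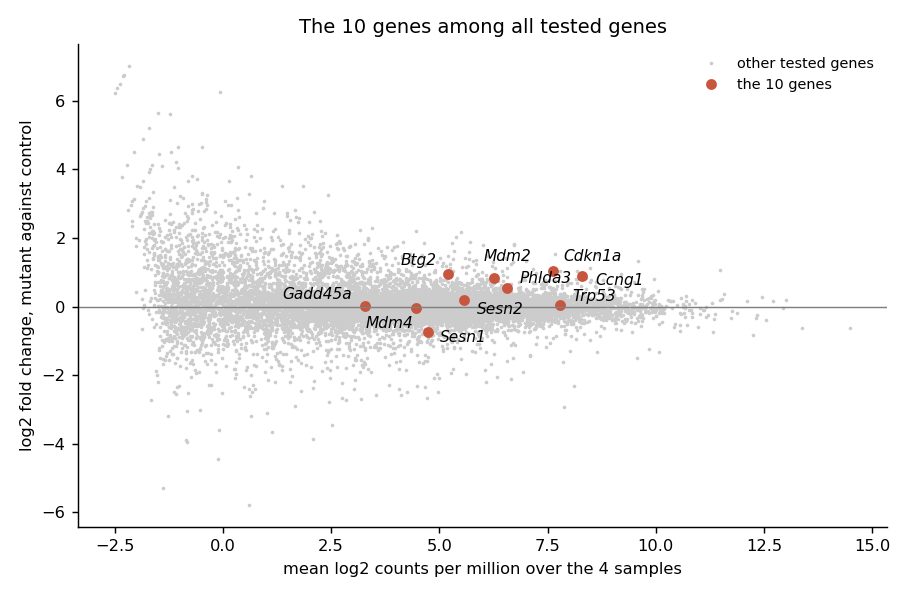
Log2 fold change, mutant against control, against mean log2 CPM (counts scaled by library total) over the 4 samples, for all 14123 tested genes (grey) and the 10 genes (red). Cdkn1a, Ccng1, Mdm2, Btg2 and Phlda3 lie in the upper part of the cloud at their level of expression, Sesn1 in the lower part, and Trp53, Mdm4, Gadd45a and Sesn2 near 0.

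The libraries took the same order in Mdm2, Cdkn1a, Ccng1, Btg2 and Phlda3, with control replicate 1 lowest, then control replicate 2, mutant replicate 1 and mutant replicate 2, the sample that read Xist. So part of the span of these genes lay within the groups. Control replicate 1 stood at 0.701 of control replicate 2 for Mdm2, at 0.682 for Cdkn1a and at 0.653 for Ccng1, but at 0.996 for Phlda3. Over the 10 genes, the root mean square difference in log2 CPM was 0.42 between the control samples and 0.28 between the mutant samples. It was 0.40 between control replicate 2 and mutant replicate 1, so these samples of different genotype were as close to each other as the control samples were. The other pairs across genotype were 0.65 to 0.94 apart. Over all tested genes the same measure was 0.54 between the control samples, 0.38 between the mutant samples and 0.55 to 0.75 across genotype.

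**Figure D4:**
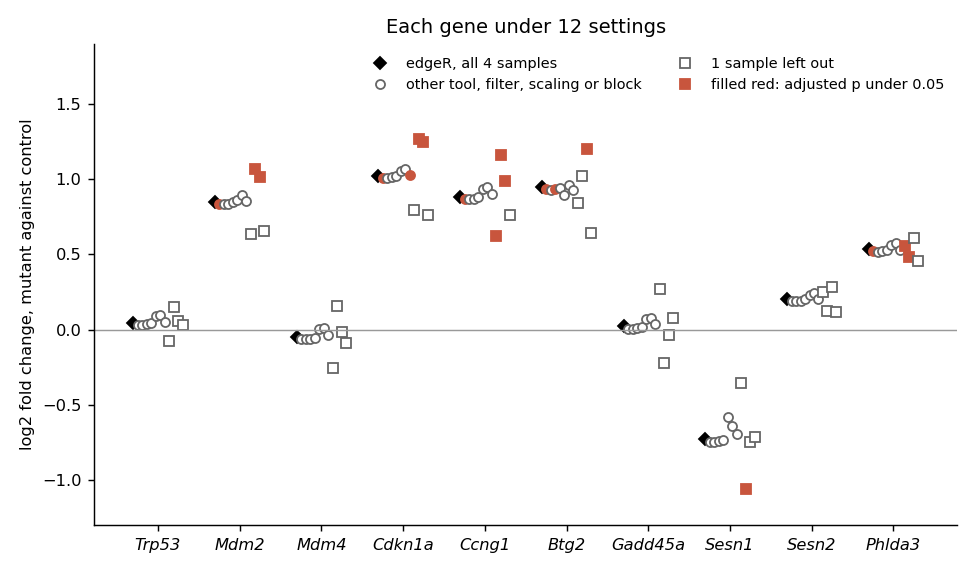
Log2 fold change of each of the 10 genes with all 4 samples in edgeR (black diamond), under another tool, filter, scaling or block (circles) and with 1 sample left out (squares), filled red where the adjusted p was under 0.05. Mdm2, Cdkn1a, Ccng1, Btg2, Sesn2 and Phlda3 stay above 0 and Sesn1 below 0 throughout, while Trp53, Mdm4 and Gadd45a cross 0.

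By level, Trp53 was the most abundant of the 10 transcripts per length in the control samples, with every value above those of Cdkn1a. Next in the control samples came Cdkn1a, Ccng1 and Phlda3, with means of 71.2, 66.3 and 52.5 RPKM and overlapping ranges between neighbours. Apart from these, Mdm2 at 18.8 RPKM and Sesn2 at 16.3 RPKM overlapped each other. Sesn1, Btg2, Gadd45a and Mdm4 lay below Sesn2 at 10.7, 8.55, 7.76 and 6.38 RPKM, and each overlapped the next. The mutant samples had another order. Cdkn1a came first with a mean of 149 RPKM, Ccng1 next with 125 RPKM and Trp53 after it with 122 RPKM, and these neighbours overlapped. Phlda3 at 78.4 RPKM and Mdm2 at 34.9 RPKM followed, each apart from its neighbours. Sesn2 at 19.4 and Btg2 at 17.003 RPKM overlapped, and Gadd45a at 8.11, Sesn1 at 6.64 and Mdm4 at 6.33 RPKM were each apart from the next.

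Profiles over the 4 samples were compared with that of Cdkn1a by the root mean square difference of centred log2 CPM, among 9250 other genes with a mean of at least 10 CPM. Of the genes outside the 10, the closest were Arhgap22 at 0.035, Lrdd at 0.038, Aqp5 at 0.046, Stxbp2 at 0.060 and Klhdc8a at 0.063. Lrdd, now named Pidd1, encodes a death domain protein known as a p53 target. Among the 10 genes, Mdm2 was at 0.098 with 16 other genes closer, Ccng1 at 0.11 with 24 closer and Btg2 at 0.12 with 26 closer. Phlda3 was at 0.34, Trp53 at 0.52 and Sesn1 at 0.97. With 4 samples, such likeness is a description only, and the samples share their group and their depth.

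Other genes around p53 were read from the same fit, and none of them passed an adjusted p of 0.05 in edgeR with all samples and no block. The 24 other targets in arrest, repair and feedback had 16 members higher and 2 lower in both mutant samples, against 28.3% and 19.2% of all tested genes, and a median log2 fold change of 0.36. Leaving out a sample moved that median to between 0.23 and 0.45, with the lowest value without control replicate 1. Of these 24, 8 were higher at an unadjusted p under 0.05 (9.29% of all tested genes), and DESeq2 called 4 higher (Rprm, Zmat3, Aen and Eda2r) and 0 lower (2.96% and 1.84% of all genes with an adjusted p). Rprm, the G2 arrest gene reprimo, was read at 0.326 and 0.681 RPKM in the control samples and at 1.79 and 3.78 RPKM in the mutant samples, with a log2 fold change of 2.39 (edgeR adjusted p = 0.111). Eda2r, a receptor of the TNF family, was read at 2.55 and 4.01 RPKM against 6.02 and 7.02 RPKM, and Zmat3, an RNA-binding zinc finger gene, at 10.2 and 14.4 RPKM against 20.2 and 23.2 RPKM. Neither overlapped between the groups, and their edgeR adjusted p values were 0.122 and 0.117. Sfn, which encodes 14-3-3 sigma, was read at 2.03 and 1.80 RPKM against 3.43 and 3.51 RPKM (edgeR adjusted p = 0.191).

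The 11 p53 targets in apoptosis had 8 members higher and 0 lower in both mutant samples, against 28.3% and 19.2% of all tested genes, with a median log2 fold change of 0.33. That median was 0.20 to 0.45 when a sample was left out, with the lowest value without mutant replicate 2. Of the 11, 5 were higher at an unadjusted p under 0.05, against 9.29% of all tested genes, and DESeq2 called Pmaip1 and Lrdd higher, against 2.96% of all genes. A block for the replicate number let edgeR call Pmaip1 (adjusted p = 0.0362), against 0.595% of all tested genes called higher. Pmaip1, the BH3-only gene NOXA, was read at 0.179 and 0.360 RPKM in the control samples and at 3.05 and 3.49 RPKM in the mutant samples. Its log2 fold change of 3.53 (edgeR adjusted p = 0.0737) was the largest on these lists, and its control values were close to 0, so the size of the fold is uncertain. Bbc3, another BH3-only target on the list, known as PUMA, had a log2 fold change of -0.14 (edgeR adjusted p = 0.831). Lrdd was read at 2.86 and 4.39 RPKM against 6.25 and 8.53 RPKM (edgeR adjusted p = 0.142), and Fas, the death receptor, at 4.96 and 5.64 RPKM against 6.67 and 11.8 RPKM (edgeR adjusted p = 0.275). Perp, a desmosome gene, was read at 0.4005 and 2.07 RPKM against 2.99 and 7.43 RPKM (edgeR adjusted p = 0.240).

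The 18 other regulators of p53 had 5 members higher and 2 lower in both mutant samples, where the shares of all tested genes were 28.3% and 19.2%, so the count of higher members was at the background. Their median log2 fold change was 0.027, with a range over the fits that left out a sample from -0.02 (control replicate 1 out) to 0.21 (control replicate 2 out). Trim24, a ubiquitin ligase for p53, was the only member that DESeq2 called, and the only one with an unadjusted p under 0.05, against 2.96% and 9.29% of all genes. It was read at 6.43 and 6.56 RPKM in the control samples and at 11.7 and 11.9 RPKM in the mutant samples, with a log2 fold change of 0.82 (edgeR adjusted p = 0.0831). The replicates of each group were closer to each other than the groups were. Hipk2, a kinase of p53, was read at 5.44 and 4.85 RPKM against 7.67 and 6.28 RPKM (edgeR adjusted p = 0.343), and the ligases Rchy1 and Rfwd2 had log2 fold changes of 0.19 and 0.18. Trim28 overlapped, at 129 and 144 RPKM against 139 and 134 RPKM. So did Cdkn2a, the locus of ARF, an inhibitor of MDM2, at 44.9 and 17.8 RPKM against 21.2 and 16.8 RPKM, where control replicate 1 stood apart.

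The next list held 18 cell cycle genes that p21 is known to repress through the DREAM complex. In both mutant samples 0 of them were lower and 2 higher, against 19.2% and 28.3% of all tested genes. Their median log2 fold change was 0.10. With all samples and no block, edgeR called 0 of them and 0 of all tested genes. DESeq2 also called 0, against 2.96% higher and 1.84% lower of all genes with an adjusted p. At an unadjusted p under 0.05 there were 0, against 9.29% higher and 6.28% lower of all tested genes. Foxm1, a transcription factor of G2 and mitosis, was read at 26.3 and 39.1 RPKM in the control samples and at 43.7 and 40.2 RPKM in the mutant samples (edgeR adjusted p = 0.485). Cenpa, the centromeric histone gene, was read at 27.9 and 32.8 RPKM against 33.6 and 39.1 RPKM (edgeR adjusted p = 0.538). The list median was -0.16 with control replicate 1 left out and 0.39 with control replicate 2 left out, so the direction depended on the samples.

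The stress pathways that also reach some of these targets were read as lists too, and no test compared the lists with each other. Of the 15 early response genes, which growth factors and stress switch on within minutes, as they do Btg2, 12 were higher and 1 lower in both mutant samples, against 28.3% and 19.2% of all tested genes, with a median log2 fold change of 0.21. Nr4a1, an orphan nuclear receptor, was read at 5.09 and 6.14 RPKM in the control samples and at 12.6 and 20.4 RPKM in the mutant samples, with a log2 fold change of 1.51 (edgeR adjusted p = 0.0831). Dusp1, a phosphatase of MAP kinases, and Ier3, a survival gene, had log2 fold changes of 1.43 and 1.30 (edgeR adjusted p = 0.0985 and 0.0942). Egr2, a zinc finger factor, had a log2 fold change of 1.05 (edgeR adjusted p = 0.184). In this list 6 genes were higher at an unadjusted p under 0.05, against 9.29% of all tested genes, and DESeq2 called Nr4a1, Dusp1, Ier3 and Fos higher, against 2.96%. A block for the replicate number let edgeR call Nr4a1, Dusp1 and Ier3 higher, each with an adjusted p of 0.0393, against 0.595% of all tested genes. Of the 12 ATF4 targets other than Sesn2, 3 were higher and 1 lower in both mutant samples. These counts were near or below the 28.3% and 19.2% of all tested genes. By edgeR 0 of the 12 were called, as of all tested genes. DESeq2 called 0 as well, against 2.96% higher and 1.84% lower of all genes with an adjusted p. Another 0 had an unadjusted p under 0.05, against 9.29% higher and 6.28% lower of all tested genes. The median log2 fold change of the 12 ATF4 targets was 0.077. Its sign turned to -0.06 with control replicate 1 left out and to -0.01 with mutant replicate 1 left out. With control replicate 2 left out it was 0.22, and the median of the early response genes was 0.21. The farthest from 0 were Ddit4 at 0.48, Cebpb at 0.36, Vldlr at -0.35 and Slc7a11 at 0.26. Ddit4 is also counted in the list of other arrest targets, and the ATF4 list includes Atf4 itself.

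**Figure D5:**
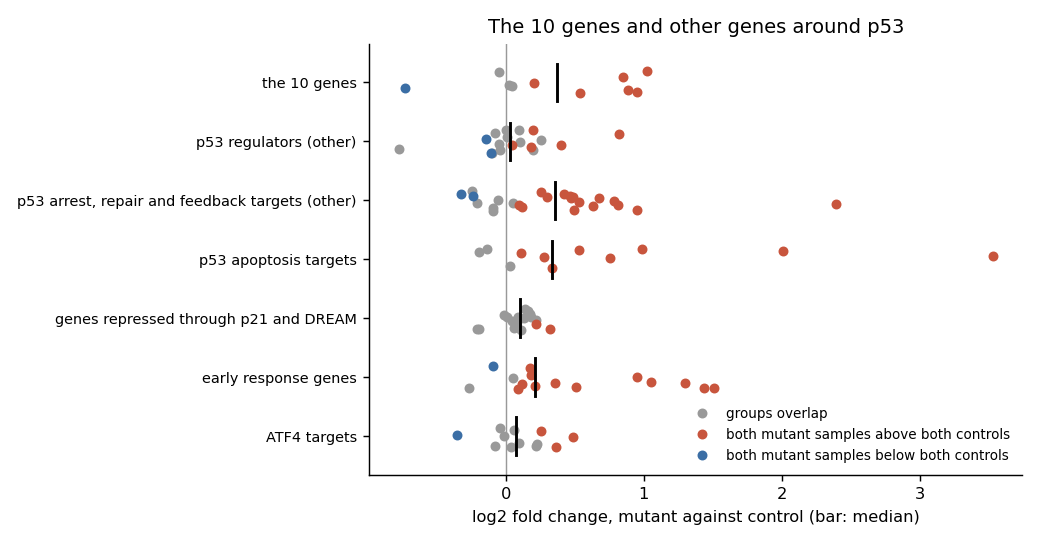
Log2 fold change, mutant against control, of each gene of the 10 and of 6 lists around p53, with a bar at the median of each list, red for genes higher in both mutant samples than in both controls, blue for genes lower in both and grey for overlap. The medians are 0.37 for the 10 genes, 0.36 for the other arrest targets and 0.33 for the apoptosis targets. They are 0.21 for the early response genes, 0.077 for the ATF4 targets and 0.027 for the other regulators. The median is 0.10 for the genes repressed through p21 and DREAM.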

How the data were processed

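RNA of 2 mutant and 2 control samples was sequenced at BGI. The authors deposited per gene and sample the raw read count, the RPKM scaled by gene length and counted reads, and the covered percent of the gene length, which was 75.5 to 100.0% for the 10 genes. A gene that a file does not list was given a count of 0. The submitters' processing notes name mm9 and SAMtools, and the aligner, counting tool and annotation are not given in the sources used here. The files hold no coordinates. Promoter windows were taken from RefSeq tables of GRCm38.p6 and gene overlaps from GENCODE M21, by gene identifier or symbol, with no conversion between builds.

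The counts went into edgeR 4.0.16 under R 4.3.3 (quasi-likelihood F test, robust estimation, TMM factors 0.966 to 1.03). Genes needed 10 counts or more in 2 or more samples, which left 14123, and p-values were adjusted over all of them by Benjamini-Hochberg. Fold changes are log2 with SE and a 95% interval from that fit. Counts of replicates differed by a chi-square per degree of freedom of 48.6 (control) and 23.7 (mutant), so neither group held a repeated library. Pairs across the groups were not put to this check. The alternatives tried were the DESeq2 1.42.0 Wald test, its size factors in edgeR, a fit that left out 1 sample, a block for the replicate number, a filter of 10 counts in all 4 samples or none, and limma 3.58.1 on log2 RPKM with a pseudocount of 1 or of 0.1. The scripts were tested on simulated data.

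The 10 genes, the gene lists and the tests were chosen with earlier results of these data known. Genes are named by a rule: all 10 genes, Senp6, the list members called or, where fewer than 3 were called, up to 4 a list with the largest fold change among those whose groups did not overlap, and the 5 profiles most like Cdkn1a. Bbc3, Trim28, Cdkn2a, Rps27l, Aen, Fos and the genes used to tell sex were named after their values were seen. Tigar, Cnmd, Adgre1 and Hbb-bs are listed under older symbols.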

Additional observations from a re-analysis of the deposited data

How the results depend on the processing

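Of the fold changes of the 10 genes under the alternatives, 86 kept their direction and missed the threshold as with all samples in edgeR, 18 kept it and passed, and 6 turned. Trp53 ranged from -0.079 to 0.15 on the log2 scale when each sample was left out, Mdm4 from -0.26 to 0.16 and Gadd45a from -0.22 to 0.27, with Gadd45a at -0.04 without mutant replicate 1, and Mdm4 was at 0.0053 with limma on log2(RPKM + 1) and at 0.0085 on log2(RPKM + 0.1). Among all genes, DESeq2 called 436 higher and 271 lower, no filter gave 225 and 61, and leaving out each sample gave 96 to 1331 higher and 47 to 1492 lower. Of the 10 genes, DESeq2 called 5 higher, no filter called 1, and leaving out each sample gave 0 to 4 higher and 0 to 1 lower. The median log2 fold change of the 10 genes was 0.29 to 0.45 when each sample was left out, against 0.37 with all samples. It moved by more than the spread of the samples (0.070) in 2 of these fits. It was 0.45 without mutant replicate 1, and 0.29 without mutant replicate 2, which leaves samples of 1 sex. Other size factors, the stricter filter and limma called 0 of the 10 genes. List medians stayed within the spread of the samples in 60 fits and moved further in 6, all with a sample left out, in the lists of other regulators, other arrest targets and ATF4 targets.

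Deviations of same-numbered samples from their group means had a correlation of -0.0422 across 14123 genes. Such a correlation over all genes cannot decide whether same-numbered samples shared a litter or a culture day. The labels do not say, and pairing by replicate number was not otherwise tested. With the replicate block, edgeR called 84 genes higher and 33 lower, and 1 of the 10 genes higher.

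The calls rest on 2 samples a group, or on 1 in a group where a sample was left out, and each of the 10 genes had at least 213 counts in each sample.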
